A study of Mus musculus with 8 samples.

Results

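The colon epithelium of mice lacking the RNA helicase DDX5 in gut epithelial cells was compared with that of wild-type mice, across every gene of the colon count table that passed a filter on low counts. The filter kept 15362 of 28349 genes, and 4 of the series' 8 libraries are from the healthy colon. Ddx5+/+ Vil1Cre+ animals (WT IEC) were set against Ddx5 fl/fl Vil1Cre+ animals (DDX5 ΔIEC), so both genotypes carried the Villin1-driven Cre, and only the loxP-flanked alleles differ by label. Villin1 drives Cre in the epithelium of the small and large intestine, so the loss is limited to those cells and the other cells of the gut wall keep an intact gene. The labels give the age as 8 weeks. Cells were released from the gut wall with EDTA and DTT and were not sorted, and no treatment was given. Each genotype has 2 libraries, of ribosome-depleted RNA from 2 mice, numbered as replicates 1 and 2. The animals were littermates of both genotypes that shared cages, per the study. Values below are given in that order and are CPM, counts on a gene scaled to the TMM-normalized size of each library. Fold changes are DDX5 ΔIEC over WT IEC on the log2 scale, with their standard error (SE), and stand in parentheses after the CPM of a gene.

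The colon epithelium is a single layer of cells that renews from stem cells at the base of crypts. Its absorptive colonocytes take up salt, water and short-chain fatty acids, and its goblet cells secrete the mucus that holds bacteria away from the surface. Tuft cells, enteroendocrine cells and intraepithelial lymphocytes make up small shares of the released cells. Epithelial cells also present antigen and make antimicrobial proteins, and many of these genes respond to interferons or to the cytokines of type 2 immunity. DDX5 is a DEAD-box protein that binds RNA and takes part in transcription, splicing and microRNA processing.

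The libraries held 17385217 and 20393824 counts in the WT IEC pair, against 16883951 and 19437275 in the DDX5 ΔIEC pair, close enough in depth that 1 count was worth about the same level in each. Ddx5 itself stood at 852 and 785 CPM in WT IEC and 404 and 389.9 CPM in DDX5 ΔIEC, for a log2 fold change of -1.04 (SE 0.0888). Each DDX5 ΔIEC library lay below both WT IEC libraries and kept a part of the wild-type level, and the counts over the whole gene do not separate the deleted exons from the rest. Transcripts of other genes share 14.6% of the 50-base words of Ddx5, so its counts carry some uncertainty.

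The labelled tissue was checked against defining markers. All 14 epithelial markers passed the filter, and their summed level was 16714 and 16341 CPM in WT IEC and 18438 and 16828 CPM in DDX5 ΔIEC, with Krt8 as the most abundant. Of these, Cldn4 was called higher and Cdx2, a transcription factor that keeps intestinal identity, was called lower by the criterion given below. Cdx2 stood at 234 and 229.7 CPM in WT IEC and 132 and 192 CPM in DDX5 ΔIEC. Cdx2 lost the call without WT IEC replicate 1, at a log2 fold change of -0.51. Cdx2 and Cldn4 lost the call without WT IEC replicate 2, at log2 fold changes of -0.54 and 0.43. Cdx2 and Cldn4 lost the call without DDX5 ΔIEC replicate 1, at log2 fold changes of -0.28 and 0.49. Cdx2 moved to -0.82 without DDX5 ΔIEC replicate 2. With all 8 libraries in 1 fit, which here and below had no replicate block, 0 of these markers were lower. Surface colonocyte genes summed to 15824 and 16083 CPM in WT IEC and 20233 and 19703 CPM in DDX5 ΔIEC, higher in both DDX5 ΔIEC libraries than in both WT IEC libraries. Goblet cell genes summed to 64111 and 72419 CPM in WT IEC and 35467 and 51354 CPM in DDX5 ΔIEC, with Fcgbp on top, and both DDX5 ΔIEC libraries were below both WT IEC libraries. The 7 mucins tested, led by Muc2, summed to 14830 and 18599 CPM in WT IEC and 13558.5 and 24944 CPM in DDX5 ΔIEC. For the mucins DDX5 ΔIEC replicate 2 was the highest library and replicate 1 the lowest.

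Markers of cells other than epithelium were at low levels. T cell and cytotoxic lymphocyte markers, 40 of 41 listed in the table and 30 tested, summed to 119 and 82.3 CPM in WT IEC and 18.2 and 46 CPM in DDX5 ΔIEC, and Ptprc was the most abundant. Their sum was lower in both DDX5 ΔIEC libraries and lowest in replicate 1, where 6 members had 0 counts, against 1 and 0 in WT IEC and 3 in DDX5 ΔIEC replicate 2. Myeloid markers summed to 46.6 and 40.8 CPM in WT IEC and 27.6 and 38.3 CPM in DDX5 ΔIEC, mostly Cd14. Fibroblast and matrix markers summed to 44.2 and 58.8 CPM in WT IEC and 43.7 and 34.7 CPM in DDX5 ΔIEC, led by Pdgfrb, and endothelial markers to 12.2 and 10.2 CPM in WT IEC and 9.90 and 8.12 CPM in DDX5 ΔIEC, led by Vwf. Smooth muscle markers summed to 53 and 54.7 CPM in WT IEC and 65.7 and 80.5 CPM in DDX5 ΔIEC, nearly all of it Mylk, while Acta2, Myh11 and Des had at most 5 counts in any library. B and plasma cell markers summed to 3.89 and 2.25 CPM in WT IEC and 4.01 and 11.2 CPM in DDX5 ΔIEC, led by Igha. Cd79a and Cdh5 had 1 count in WT IEC replicate 1 and 0 in the other 3 libraries. Neuron and glia markers summed to 3.19 and 3.23 CPM in WT IEC and 3.04 and 4.41 CPM in DDX5 ΔIEC, led by Ret, and erythroid markers to 14.3 and 10.6 CPM in WT IEC and 5.71 and 17.2 CPM in DDX5 ΔIEC, led by Hbb-bs, which shares 53.2% of its words with other genes. In bulk RNA, fewer cells of a type and less RNA per cell cannot be told apart, and this holds for every cell-type list below.

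**Figure D1:**
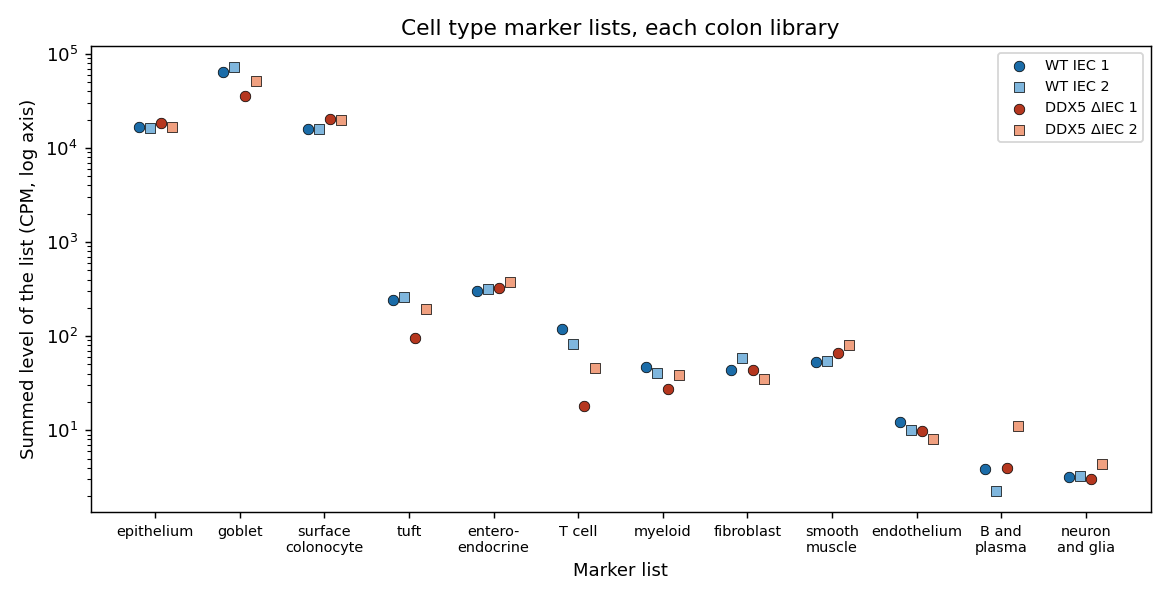
Summed CPM (log axis) of cell type marker lists in each of the 4 colon libraries, circles for replicate 1 and squares for replicate 2. Epithelial markers lie close together, while the T cell sum runs from 119 CPM in WT IEC replicate 1 down to 18.2 CPM in DDX5 ΔIEC replicate 1.

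Genes were called lower or higher if their log2 fold change was 0.5 or more in size with an unadjusted p under 0.05 in edgeR's quasi-likelihood test, which had terms for replicate number and genotype. By that criterion 564 genes were lower, 3.67% of those tested, and 467 were higher, 3.04%. After Benjamini-Hochberg adjustment over all genes, 0 genes passed 0.05 in edgeR's quasi-likelihood test, although 1836 had an unadjusted p under 0.05 and DESeq2 passed 117 genes with the replicate block and 183 without it. Under 0.1, edgeR's quasi-likelihood test (Benjamini-Hochberg) held 19 genes, 12 lower and 7 higher. Every call below is therefore made at an unadjusted p. Among the lower genes 283 had a log2 fold change of -1 or less and 59 of -2 or less, and among the higher ones 210 reached 1 and 30 reached 2. Called genes were less abundant than the rest, with a median of 5.54 CPM for the lower and 4.57 for the higher against 17.1 over all genes tested, yet 34 lower and 30 higher genes exceeded 100 CPM. Each count moved with single libraries: 316 lower and 292 higher without WT IEC replicate 1, 294 higher without WT IEC replicate 2, and 1435 lower and 953 higher without DDX5 ΔIEC replicate 2. With a DDX5 ΔIEC library left out, 963 (replicate 1) or 2506 genes (replicate 2) passed an adjusted p of 0.05 in edgeR's quasi-likelihood test (Benjamini-Hochberg). In those fits the spread comes from the 2 WT IEC libraries alone. DESeq2 with the block called 310 lower and 198 higher.

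DDX5 ΔIEC replicate 1 stood apart from the other 3 libraries. Over all genes tested, the SD of the log2 difference between replicates was 0.368 in WT IEC and 0.568 in DDX5 ΔIEC. The correlation across genes of log CPM was 0.990 between the WT IEC libraries and 0.977 between the DDX5 ΔIEC libraries. It was 0.983 between either WT IEC library and DDX5 ΔIEC replicate 2, which was thus closer to wild type than to replicate 1. Between the WT IEC libraries and DDX5 ΔIEC replicate 1 it was 0.971 and 0.970. Genes are not independent replicates. Called genes differed more in the replicate 1 pair. For genes called lower the median log2 ratio was -1.22 in the replicate 1 pair and -0.74 in the replicate 2 pair, and 428 of 564 moved further in replicate 1. For genes called higher the medians were 0.99 and 0.81, and 288 of 467 moved further in replicate 1. Of the lower genes 551 had both DDX5 ΔIEC libraries below both WT IEC libraries, and of the higher genes 454 had both above. The call itself favours this since it rests on these libraries. Among all genes tested, called or not, 22% had both below and 22.5% had both above. The genes named for the largest fold changes among all called genes had to meet this condition. The study describes its colon libraries as 2 independent littermate pairs that were housed together. Whether the replicate number marks such a pair or a harvest is not given in the sources used here.

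**Figure D2:**
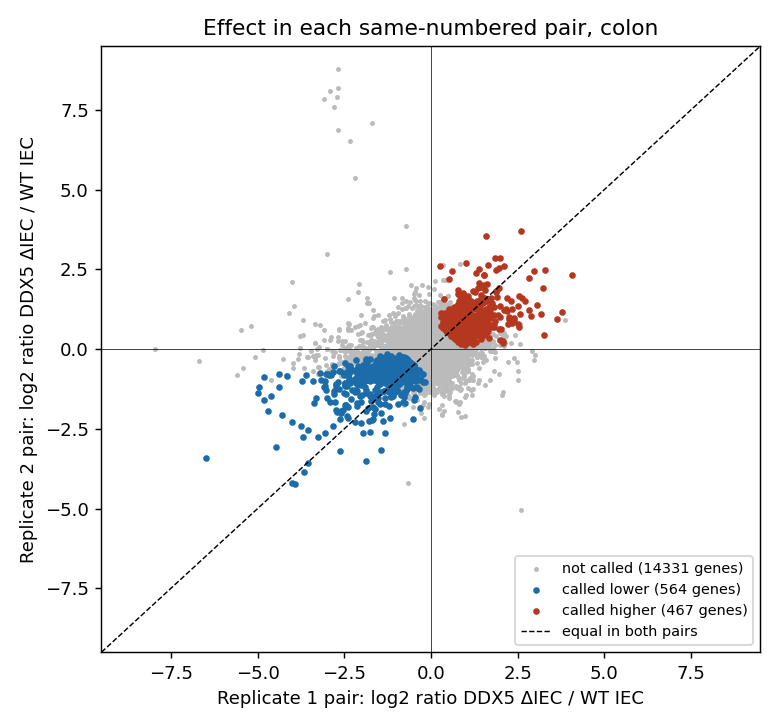
Log2 ratio of DDX5 ΔIEC over WT IEC in the replicate 1 pair (horizontal) and the replicate 2 pair (vertical), 1 point per gene tested, with 564 genes called lower in blue, 467 called higher in red and the dashed line marking equal ratios. Of the called genes, 428 of the lower and 288 of the higher moved further in the replicate 1 pair.

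Secreted products of goblet cells and their neighbours were among the most abundant lower genes. Of 24 goblet cell genes tested 7 were called lower and 0 higher, against 3.67% and 3.04% of all genes, with a list median of -0.25 beside a median near 0 over all genes tested. Mptx1, a mucosal pentraxin, stood at 7729.6 and 9294 CPM in WT IEC and 2680.4 and 2914 CPM in DDX5 ΔIEC, for a log2 fold change of -1.6 (SE 0.114). Ang4, a bactericidal ribonuclease of the angiogenin family, was at 1449.7 and 1669 CPM in WT IEC and 219.7 and 426 CPM in DDX5 ΔIEC (-2.35, SE 0.203). Both genes were separated between the genotypes by more than the replicates differed. The edgeR quasi-likelihood test (Benjamini-Hochberg) gave adjusted p-values of 0.0741 for Mptx1 and 0.0866 for Ang4. Reg4, a secreted C-type lectin, stood at 577 and 689 CPM in WT IEC and 215 and 172 CPM in DDX5 ΔIEC (-1.72, SE 0.159). Retnlb, the goblet cell hormone RELM beta, was at 1135 and 1279.8 CPM in WT IEC and 109 and 400.2 CPM in DDX5 ΔIEC (-2.53, SE 0.428), and Itln1, a lectin for microbial sugars, at 83.1 and 80.3 CPM in WT IEC and 16.1 and 40.6 CPM in DDX5 ΔIEC (-1.65, SE 0.337). In both genes the libraries did not overlap, which the naming rule required, and DDX5 ΔIEC replicate 2 lay between the wild-type level and replicate 1. Retnlb and Itln1 moved to -1.59 and -1.01 without DDX5 ΔIEC replicate 1. Words shared with other genes were 17.9% for Mptx1 and 4.70% for Ang4. Spdef, which drives goblet cell maturation, was not called, at 106 and 142 CPM in WT IEC and 86.3 and 98.2 CPM in DDX5 ΔIEC, while Gfi1, another regulator of secretory cells, was called lower at 17.5 and 18.3 CPM in WT IEC and 9.47 and 8.72 CPM in DDX5 ΔIEC (-0.98, SE 0.149). Spdef passed the criterion without WT IEC replicate 1, at -0.62. Spdef passed the criterion without DDX5 ΔIEC replicate 2, at -0.53. The goblet list's count was 6 lower and 1 higher of 24 without DDX5 ΔIEC replicate 1, and 9 lower and 1 higher of 24 without DDX5 ΔIEC replicate 2.

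**Figure D3:**
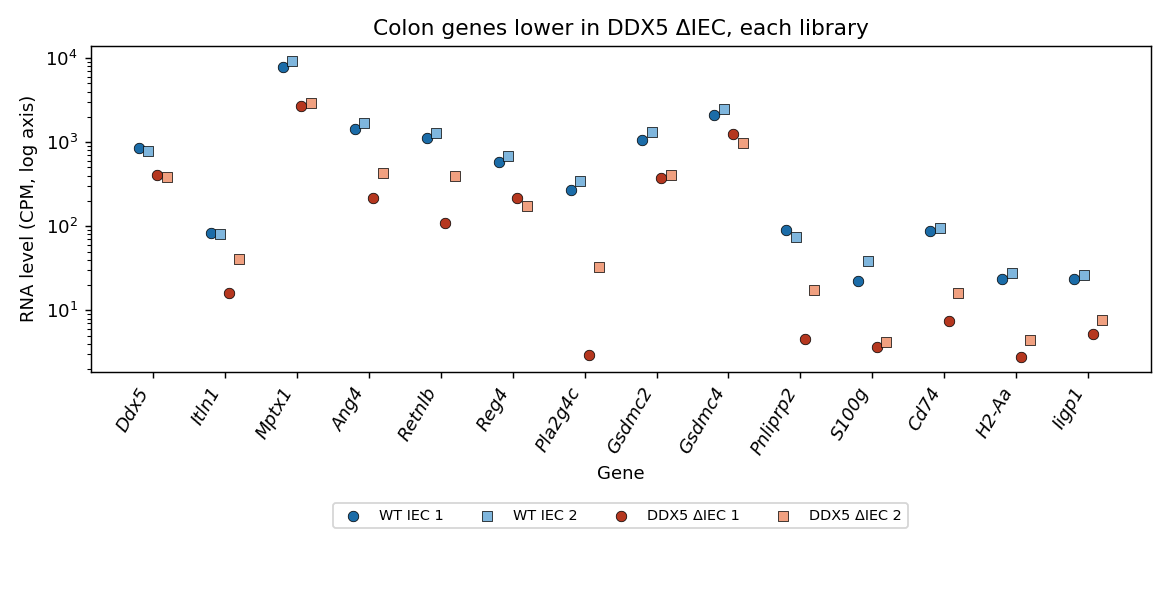
CPM (log axis) of Ddx5 and other genes called lower, in each of the 4 colon libraries, circles for replicate 1 and squares for replicate 2. In every gene drawn both DDX5 ΔIEC libraries lie below both WT IEC libraries, which the naming rule required of most of them. For Pla2g4c and Retnlb replicate 1 lies furthest down.

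Lectins and antimicrobial proteins overlapped with this group. Of 26 tested genes induced by IL-22 or microbes, 7 were lower and 1 was higher, against 3.67% and 3.04% of all genes. Of 7 tested Paneth cell genes 3 were lower, namely Ang5, Mptx2 and Itln1. Paneth cells belong to the small intestine. At low levels here, Mptx2, which shares 18% of its words with other genes, stood at 5.92 and 8.02 CPM in WT IEC and 1.82 and 1.70 CPM in DDX5 ΔIEC (-1.97, SE 0.256) and Ang5 at 0.754 and 1.03 CPM in WT IEC and 0.0607 and 0.150 CPM in DDX5 ΔIEC (-2.98, SE 0.585). Retnlb, Ang4 and Itln1 are counted in more than 1 of these lists. The Paneth list's count was 5 lower and 0 higher of 8 without WT IEC replicate 2, and 3 lower and 1 higher of 8 without DDX5 ΔIEC replicate 2. The IL-22 list's count was 5 lower and 0 higher of 26 without WT IEC replicate 2, 6 lower and 2 higher of 26 without DDX5 ΔIEC replicate 1, and 12 lower and 4 higher of 26 without DDX5 ΔIEC replicate 2. It came to 0 higher of 27 with all 8 libraries in 1 fit.

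Genes induced by type 2 cytokines were mostly called lower. Of 11 tested, 9 were lower and 0 higher, against 3.67% and 3.04% of all genes, with a median of -0.62. Among the 9, Retnlb and Fcgbp are also counted as lower goblet genes. Gsdmc2, Gsdmc3 and Gsdmc4 are neighbours that share words, as given below, and Sprr2a1 and Sprr2a3 belong to the same family. Pla2g4c, a cytosolic phospholipase A2, stood at 266 and 349 CPM in WT IEC and 2.92 and 32.6 CPM in DDX5 ΔIEC, for a log2 fold change of -4.63 (SE 0.735). The WT IEC libraries were close together, whereas DDX5 ΔIEC replicate 2 kept more of the transcript than replicate 1, and both were far below wild type. Gasdermin C proteins form pores in the membranes of epithelial cells and rise in worm infection. Gsdmc2 stood at 1049 and 1327 CPM in WT IEC and 376 and 406 CPM in DDX5 ΔIEC (-1.59, SE 0.105), Gsdmc4 at 2112 and 2509 CPM in WT IEC and 1243 and 986 CPM in DDX5 ΔIEC (-1.06, SE 0.165) and Gsdmc3 at 336 and 347 CPM in WT IEC and 207 and 175 CPM in DDX5 ΔIEC (-0.84, SE 0.105). For Gsdmc2 the edgeR quasi-likelihood test (Benjamini-Hochberg) gave an adjusted p of 0.0650. No library of one genotype reached those of the other in any of these genes. The genes lie side by side on chromosome 15 of GRCm38, on the minus strand: Gsdmc2 at chr15:63824346-63845177, Gsdmc3 at chr15:63857724-63878558 and Gsdmc4 at chr15:63891264-63912297. The pseudogene Gsdmcl-ps follows at chr15:63914448-63925666 on the plus strand and was lower too, at 16.5 and 17.2 CPM in WT IEC and 9.96 and 8.47 CPM in DDX5 ΔIEC (-0.88, SE 0.160). They share 51.3% (Gsdmc2), 46% (Gsdmc3), 39% (Gsdmc4) and 32.1% (Gsdmcl-ps) of their 50-base words with other transcripts, so reads could not always be given to 1 copy. Of 7 gasdermins tested, these 4 were the lower ones, and the count was 5 lower and 1 higher of 9 without DDX5 ΔIEC replicate 1.

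MHC class II molecules display peptides to CD4 T cells, and interferon gamma turns them on in epithelium through the coactivator CIITA. Of 9 tested genes of this pathway, 7 were lower and 0 higher, with a median of -2.27, and the count was 7 with each library left out in turn and with DESeq2 and the block. Of all genes tested, 3.67% were lower and 3.04% higher. The called genes were Cd74, H2-Aa, H2-Ab1, H2-Eb1, H2-DMb1, H2-DMa and Ciita. H2-Aa, the alpha chain of the I-A molecule, stood at 23.8 and 27.6 CPM in WT IEC and 2.79 and 4.46 CPM in DDX5 ΔIEC (-2.84, SE 0.183). H2-DMb1, part of the peptide exchange factor, stood at 9.05 and 8.61 CPM in WT IEC and 1.46 and 2.11 CPM in DDX5 ΔIEC (-2.31, SE 0.255) and shares 22.7% of its words with other genes. In both genes the WT IEC replicates were close, DDX5 ΔIEC replicate 1 was the lowest library and the genotypes did not overlap. The naming rule required the last of H2-Aa. Cd74 stood at 86.7 and 94.2 CPM in WT IEC and 7.41 and 16.2 CPM in DDX5 ΔIEC (-3.01, SE 0.260). Median ratios of the list were -2.38 in the replicate 1 pair and -2.0 in the replicate 2 pair. Macrophages, dendritic cells and B cells carry the same transcripts, and their marker sums are given above. Of 23 myeloid markers in the table only 6 passed the filter. Of these 0 were called lower, or 2 with no block or with the pairs crossed. Their median log2 fold change was -0.41, and 5 of the 6 were negative. The part of these cells in the result was not tested. RefSeq promoters (250 bases before to 50 after the start, GRCm38.p6) were available for 6 of the tested genes. The Y box ATTGG, read on both strands, occurred in 4 of them, and in 43.0% of all tested genes with a promoter. It is shown in capitals in the windows below, since these genes moved together: H2-Aa at chr17:34287774-34288073, minus strand, and H2-Eb1 at chr17:34305617-34305916, plus strand. In the last window the match further along is on the opposite strand and reads CCAAT.
H2-Aa: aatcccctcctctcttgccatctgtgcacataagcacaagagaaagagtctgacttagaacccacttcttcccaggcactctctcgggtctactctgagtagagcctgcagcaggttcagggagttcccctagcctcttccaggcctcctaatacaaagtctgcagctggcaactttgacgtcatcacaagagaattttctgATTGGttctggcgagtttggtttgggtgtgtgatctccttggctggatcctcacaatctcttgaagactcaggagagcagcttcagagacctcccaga
H2-Eb1: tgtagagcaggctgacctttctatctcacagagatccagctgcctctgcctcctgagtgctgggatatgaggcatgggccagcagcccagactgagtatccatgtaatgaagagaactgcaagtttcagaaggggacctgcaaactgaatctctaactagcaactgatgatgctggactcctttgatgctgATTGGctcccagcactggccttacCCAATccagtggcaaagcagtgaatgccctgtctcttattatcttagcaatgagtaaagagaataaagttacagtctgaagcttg

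MHC class I molecules display peptides to CD8 T cells. Of 26 tested presentation genes, 10 were called lower and 0 higher (median -0.49), against 3.67% and 3.04% of all genes. Median ratios of the list were -0.69 in the replicate 1 pair and -0.28 in the replicate 2 pair. Without DDX5 ΔIEC replicate 1 the median fold change was -0.31. Nlrc5, the coactivator of class I genes, stood at 20.0 and 22.8 CPM in WT IEC and 5.89 and 11.3 CPM in DDX5 ΔIEC (-1.36, SE 0.218). Psmb8, a subunit of the immunoproteasome that cuts peptides for class I, was at 62.9 and 56.4 CPM in WT IEC and 22.7 and 33.6 CPM in DDX5 ΔIEC (-1.1, SE 0.192), and Psmb9 at 27.7 and 26 CPM in WT IEC and 13.4 and 17.9 CPM in DDX5 ΔIEC (-0.79, SE 0.160). H2-Q7, a nonclassical class I gene that shares 26.4% of its words with other genes, was at 9.40 and 9.20 CPM in WT IEC and 2.31 and 4.41 CPM in DDX5 ΔIEC (-1.5, SE 0.294). In all 4 genes the lowest library was DDX5 ΔIEC replicate 1. The list count was 6 lower and 0 higher of 26 without DDX5 ΔIEC replicate 1. It came to 4 lower with all 8 libraries in 1 fit. Of 48 tested proteasome genes 2 were lower, both of the immunoproteasome, and with all 8 libraries in 1 fit 0 were.

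Interferon-inducible GTPases, which attack the vacuoles of intracellular microbes, were lower in 13 of 14 tested genes, with 0 higher and a median of -1.35. The shares over all genes were 3.67% lower and 3.04% higher. Tgtp1 stood at 1.68 and 2.79 CPM in WT IEC and 0.486 and 0.551 CPM in DDX5 ΔIEC (-2.09, SE 0.365), but it shares 81.2% of its words with other transcripts and its relative Tgtp2 shares 86.6%, so both are uncertain. Gbp5, a guanylate-binding protein, was at 1.04 and 1.08 CPM in WT IEC and 0.304 and 0.351 CPM in DDX5 ΔIEC (-1.67, SE 0.437). Gbp5 lost the call without WT IEC replicate 2, at a log2 fold change of -1.65. The count was 8 lower and 0 higher of 14 without WT IEC replicate 2. It came to 6 lower with all 8 libraries in 1 fit. The interferon-stimulated response element core, GAAANNGAA on either strand, was found in 9 of the 9 tested genes that have a promoter in the RefSeq table, against 8.56% of all tested genes with one. The gamma-activated sequence TTCNNNGAA was found in 6 of 9, against 8.39%. Both patterns hold the letters GAA, so their matches can overlap. The promoters below (RefSeq, GRCm38.p6) show the first motif in capitals in genes of both GTPase families, which moved together: Gbp7 at chr3:142530086-142530385, plus strand, and Irgm1 at chr11:48871371-48871670, minus strand. In the Gbp7 window the match lies on the opposite strand, and in the Irgm1 window matches overlap. A match describes the letters, not binding. Other motifs were searched in other lists, with the share of all tested genes with a promoter in parentheses. The heat shock element core GAANNTTC was in 8 of 14 heat shock genes (7%), the E box CACGTG in 4 of 15 clock genes (11.6%) and the D box TTATGNAA in 2 of 15 (2.54%). The AP-1 site TGANTCA was in 0 of 19 immediate early genes (6.48%), the sterol response element core TCACNCCAC in 1 of 20 cholesterol genes (1.43%), the CDX site core TTTATNG in 2 of 11 epithelial markers (8.52%) and the nuclear receptor site AGGTCA in 3 of 9 calcium absorption genes (15.1%).
Gbp7: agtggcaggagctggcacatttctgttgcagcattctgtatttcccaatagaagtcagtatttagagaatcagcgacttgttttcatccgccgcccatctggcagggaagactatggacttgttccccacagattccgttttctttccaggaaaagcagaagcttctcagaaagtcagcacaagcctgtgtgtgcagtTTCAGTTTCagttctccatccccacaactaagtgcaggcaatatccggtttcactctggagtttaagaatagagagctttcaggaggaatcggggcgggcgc
Irgm1: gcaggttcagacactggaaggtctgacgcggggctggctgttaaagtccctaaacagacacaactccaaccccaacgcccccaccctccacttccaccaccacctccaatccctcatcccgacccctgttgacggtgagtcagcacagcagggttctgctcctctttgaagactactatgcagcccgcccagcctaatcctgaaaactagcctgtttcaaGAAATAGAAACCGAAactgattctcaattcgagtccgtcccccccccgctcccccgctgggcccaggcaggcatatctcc

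Antiviral genes of the type I and III interferon response formed another interferon class, with 13 of 38 lower, 0 higher and a median of -0.48. All genes tested had 3.67% lower and 3.04% higher. Mx1, a GTPase that blocks viruses, stood at 43.7 and 30.4 CPM in WT IEC and 9.72 and 16.4 CPM in DDX5 ΔIEC (-1.51, SE 0.312), and Ifitm3, which blocks viral entry, at 15.3 and 13.4 CPM in WT IEC and 4.25 and 6.87 CPM in DDX5 ΔIEC (-1.38, SE 0.264). Zbp1, a sensor of Z-form nucleic acids, was at 36 and 33.9 CPM in WT IEC and 14.2 and 23.1 CPM in DDX5 ΔIEC (-0.94, SE 0.208). Every one of them was lowest in DDX5 ΔIEC replicate 1, with replicate 2 between it and the WT IEC libraries. Zbp1 moved to -0.60 without DDX5 ΔIEC replicate 1. The count moved with single libraries and was 3 lower and 0 higher of 38 without WT IEC replicate 1, 6 lower and 0 higher of 38 without WT IEC replicate 2, 3 lower and 0 higher of 38 without DDX5 ΔIEC replicate 1, and 32 lower and 0 higher of 38 without DDX5 ΔIEC replicate 2. It came to 6 lower with all 8 libraries in 1 fit. Its median ratio was -0.98 in the replicate 1 pair and -0.12 in the replicate 2 pair. The DEAD-box and DEAH-box helicases, 51 tested, had 4 lower members, and the count was 1 lower and 0 higher of 51 without WT IEC replicate 1, 2 lower and 0 higher of 51 without WT IEC replicate 2, and 1 lower and 0 higher of 51 without DDX5 ΔIEC replicate 1. It came to 2 lower with no block or with all 8 libraries in 1 fit. Besides Ddx5 the lower members were Ddx60, Ddx58 and Dhx58, which sense or respond to viral RNA. Ddx58 (RIG-I) stood at 44.2 and 45.1 CPM in WT IEC and 17.7 and 37.5 CPM in DDX5 ΔIEC (-0.77, SE 0.260), and Ddx60 at 163 and 138 CPM in WT IEC and 44.8 and 111 CPM in DDX5 ΔIEC (-1.07, SE 0.373). Ddx58 and Ddx60 lost the call without WT IEC replicate 1, at log2 fold changes of -0.71 and -0.82. Ddx58 and Ddx60 lost the call without WT IEC replicate 2, at log2 fold changes of -0.68 and -1.07. Ddx58 and Ddx60 lost the call without DDX5 ΔIEC replicate 1, at log2 fold changes of -0.25 and -0.43. Ddx58 and Ddx60 moved to -1.34 and -1.75 without DDX5 ΔIEC replicate 2.

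T cell and cytotoxic lymphocyte markers, whose sums are given above, were lower in 19 of 30 tested genes, with 0 higher and a median of -1.71. For this list and those that follow, the shares over all genes were 3.67% lower and 3.04% higher. The T cell median was -1.71 as well with Cd6 set at a floor of 3 counts over the DDX5 ΔIEC libraries, since Cd6 had 0 counts in both. Cd6, a receptor of T cells, was at 0.812 and 0.930 CPM in WT IEC. Gzma, a granule protease of killer cells, stood at 11.4 and 7.97 CPM in WT IEC and 0.304 and 3.01 CPM in DDX5 ΔIEC (-2.69, SE 0.793), and the chemokine Ccl5 at 5.92 and 3.18 CPM in WT IEC and 0.547 and 1.05 CPM in DDX5 ΔIEC (-2.41, SE 0.485). The genotypes did not overlap for Gzma or Ccl5, which the naming rule required, and WT IEC replicate 1 was the highest in both. Gzma moved to -1.68 without DDX5 ΔIEC replicate 1. Gzma moved to -4.96 without DDX5 ΔIEC replicate 2. Median ratios of the list were -2.55 in the replicate 1 pair and -0.78 in the replicate 2 pair. Its median fold change was -1.17 without DDX5 ΔIEC replicate 1 and -2.59 without DDX5 ΔIEC replicate 2. The list's count was 7 lower and 0 higher of 30 without WT IEC replicate 1, 33 lower and 0 higher of 33 without DDX5 ΔIEC replicate 2, and 9 lower and 0 higher of 30 with DESeq2 and the replicate block. Related families had fewer calls. Of these, 4 of 19 chemokines and chemokine receptors were lower with 1 higher, and 5 of 27 interleukins and interleukin receptors were lower with 1 higher. The chemokine count was 1 lower and 0 higher of 20 without WT IEC replicate 1, 4 lower and 0 higher of 22 without WT IEC replicate 2, 4 lower and 0 higher of 22 without DDX5 ΔIEC replicate 1, 7 lower and 1 higher of 22 without DDX5 ΔIEC replicate 2, and 2 lower and 0 higher of 19 with DESeq2 and the replicate block. It came to 0 higher with no block or with the pairs crossed, 2 lower and 0 higher with DESeq2 and no block and 0 higher of 20 with all 8 libraries in 1 fit. The interleukin count was 1 lower and 0 higher of 30 without WT IEC replicate 1, 5 lower and 0 higher of 30 without WT IEC replicate 2, 4 lower and 0 higher of 31 without DDX5 ΔIEC replicate 1, 9 lower and 6 higher of 29 without DDX5 ΔIEC replicate 2, and 1 lower and 0 higher of 27 with DESeq2 and the replicate block. Ccl5 and Il2rb are counted both there and in the T cell list. Igha and Igkc, the constant regions of IgA and kappa light chains, were called higher at low levels. Igkc stood at 0.174 and 0.342 CPM in WT IEC and 0.790 and 2.16 CPM in DDX5 ΔIEC and Igha at 1.22 and 1.03 CPM in WT IEC and 1.46 and 6.47 CPM in DDX5 ΔIEC, highest in DDX5 ΔIEC replicate 2. Igkc and Igha lost the call without WT IEC replicate 1, at log2 fold changes of 2.1 and 1.95. Igha lost the call without WT IEC replicate 2, at a log2 fold change of 1.7. Igha moved to 2.53 without DDX5 ΔIEC replicate 1. Igkc and Igha lost the call without DDX5 ΔIEC replicate 2, at log2 fold changes of 1.55 and 0.38. The B and plasma cell count was 0 lower and 1 higher of 4 without WT IEC replicate 1, 0 lower and 1 higher of 4 without WT IEC replicate 2, 0 lower and 0 higher of 4 without DDX5 ΔIEC replicate 2, and 0 lower and 1 higher of 3 with DESeq2 and the replicate block. The part of lymphocytes in the results for the MHC and interferon classes was not tested.

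Tuft cells are rare chemosensory cells that start type 2 responses. Of 20 tested tuft cell genes, 14 were lower and 1 was higher, against 3.67% and 3.04% of all genes, with a median of -1.03. The list summed to 243 and 264 CPM in WT IEC and 96.3 and 193 CPM in DDX5 ΔIEC. Fyb, an adaptor protein, stood at 6.38 and 5.48 CPM in WT IEC and 1.46 and 3.01 CPM in DDX5 ΔIEC (-1.43, SE 0.362). Sh2d6, another adaptor, was at 7.14 and 8.17 CPM in WT IEC and 2.19 and 4.41 CPM in DDX5 ΔIEC (-1.26, SE 0.274), and Pou2f3, the transcription factor that specifies the lineage, at 2.15 and 2.54 CPM in WT IEC and 0.425 and 1.25 CPM in DDX5 ΔIEC (-1.52, SE 0.421). In each of them DDX5 ΔIEC replicate 1 was the lowest library and replicate 2 the next. Pou2f3 lost the call without WT IEC replicate 1, at a log2 fold change of -1.57. Sh2d6 and Pou2f3 lost the call without WT IEC replicate 2, at log2 fold changes of -1.11 and -1.32. Sh2d6 and Pou2f3 moved to -0.80 and -0.91 without DDX5 ΔIEC replicate 1. Pou2f3 moved to -2.45 without DDX5 ΔIEC replicate 2. The count was 4 lower and 0 higher of 20 without WT IEC replicate 1, 2 lower and 0 higher of 21 without WT IEC replicate 2, 16 lower and 0 higher of 21 without DDX5 ΔIEC replicate 2, and 7 lower and 0 higher of 20 with DESeq2 and the replicate block. It came to 0 higher with the pairs crossed and 9 lower and 0 higher with DESeq2 and no block. The median of the list lay between -1.48 and -0.60 in the fits without 1 library. The part of tuft cell number in the type 2 result was not tested.

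Several other lower genes had large fold changes. Pnliprp2, a lipase related to the pancreatic enzyme, was at 90.7 and 74.2 CPM in WT IEC and 4.62 and 17.5 CPM in DDX5 ΔIEC (-3.06, SE 0.532), and Fn1, fibronectin, counted in the fibroblast list, at 17.8 and 26.7 CPM in WT IEC and 1.28 and 4.96 CPM in DDX5 ΔIEC (-2.97, SE 0.344). For these genes both DDX5 ΔIEC libraries were far below wild type, and replicate 2 kept more of each transcript than replicate 1. S100g, the calcium-binding calbindin-D9k, was evenly low, at 22.6 and 38.1 CPM in WT IEC and 3.64 and 4.16 CPM in DDX5 ΔIEC (-2.93, SE 0.189), with an adjusted p of 0.0650 in edgeR's quasi-likelihood test (Benjamini-Hochberg). The peptide transporter Slc15a2 was at 22.8 and 1.91 CPM in WT IEC and 1.46 and 0.0501 CPM in DDX5 ΔIEC (-4.11, SE 0.315). Its WT IEC libraries differed more from each other than the wild-type replicate 2 did from DDX5 ΔIEC replicate 1. Slc15a2 lost the call without WT IEC replicate 1, at a log2 fold change of -1.4. Slc15a2 moved to -7.74 without DDX5 ΔIEC replicate 1. DDX5 ΔIEC replicate 2 had 1 count of this gene. Among immediate early genes 4 of 25 were lower and 0 higher, against 3.67% and 3.04% of all genes. They included Nr4a1 at 50.2 and 35.6 CPM in WT IEC and 32.1 and 19.4 CPM in DDX5 ΔIEC (-0.76, SE 0.109). Another was Myc at 20.2 and 17.6 CPM in WT IEC and 10.9 and 11.6 CPM in DDX5 ΔIEC (-0.74, SE 0.150). Nr4a1 lost the call without WT IEC replicate 1, at a log2 fold change of -0.47. Nr4a1 moved to -1.14 without DDX5 ΔIEC replicate 1. Nr4a1 lost the call without DDX5 ΔIEC replicate 2, at a log2 fold change of -0.42. That count was 2 lower and 2 higher of 25 without WT IEC replicate 1, 2 lower and 0 higher of 25 without WT IEC replicate 2, 7 lower and 0 higher of 25 without DDX5 ΔIEC replicate 1, and 5 lower and 1 higher of 25 without DDX5 ΔIEC replicate 2. The cystine transporter Slc7a11 was lower at 7.43 and 10.4 CPM in WT IEC and 3.83 and 4.16 CPM in DDX5 ΔIEC (-1.15, SE 0.210), and the tight junction protein Cldn8 at 206 and 188 CPM in WT IEC and 121 and 119.7 CPM in DDX5 ΔIEC (-0.71, SE 0.0812).

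Genes of mature surface cells were among those called higher. Of 28 surface colonocyte genes tested 11 were higher and 0 lower, against 3.04% and 3.67% of all genes, with a median of 0.30. Clca4a, of the calcium-activated chloride channel regulator family, stood at 117 and 136 CPM in WT IEC and 281 and 373 CPM in DDX5 ΔIEC (1.36, SE 0.0919). Clca4b, of the same family, was at 9.92 and 9.54 CPM in WT IEC and 24.1 and 16.4 CPM in DDX5 ΔIEC (1.03, SE 0.177). They share 37.1% (Clca4a) and 24.8% (Clca4b) of their words with other genes. Slc9a3, the sodium/proton exchanger NHE3, was at 224 and 188 CPM in WT IEC and 365 and 364 CPM in DDX5 ΔIEC (0.83, SE 0.0991). Slc26a3, the chloride/bicarbonate exchanger, was at 739 and 663 CPM in WT IEC and 1442 and 896 CPM in DDX5 ΔIEC (0.70, SE 0.151), with replicate 1 the higher of the DDX5 ΔIEC libraries. Muc3, a membrane mucin of the brush border, stood at 1142 and 1304 CPM in WT IEC and 1823 and 1792 CPM in DDX5 ΔIEC (0.57, SE 0.107). In these genes the lowest DDX5 ΔIEC library exceeded the highest WT IEC library. Muc3 lost the call without WT IEC replicate 1, at a log2 fold change of 0.47. Slc26a3 lost the call without WT IEC replicate 2, at a log2 fold change of 0.66. Slc26a3 lost the call without DDX5 ΔIEC replicate 1, at a log2 fold change of 0.35. The list's count was 0 lower and 7 higher of 28 without WT IEC replicate 2, 0 lower and 7 higher of 28 without DDX5 ΔIEC replicate 1, and 2 lower and 11 higher of 28 without DDX5 ΔIEC replicate 2. Hao2, a peroxisomal hydroxyacid oxidase, was higher at 461 and 373 CPM in WT IEC and 943 and 977 CPM in DDX5 ΔIEC (1.21, SE 0.121). The ubiquitin ligase gene Fbxo32 was at 52.3 and 43.5 CPM in WT IEC and 88.1 and 102 CPM in DDX5 ΔIEC (0.99, SE 0.143). Both were even between replicates.

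**Figure D4:**
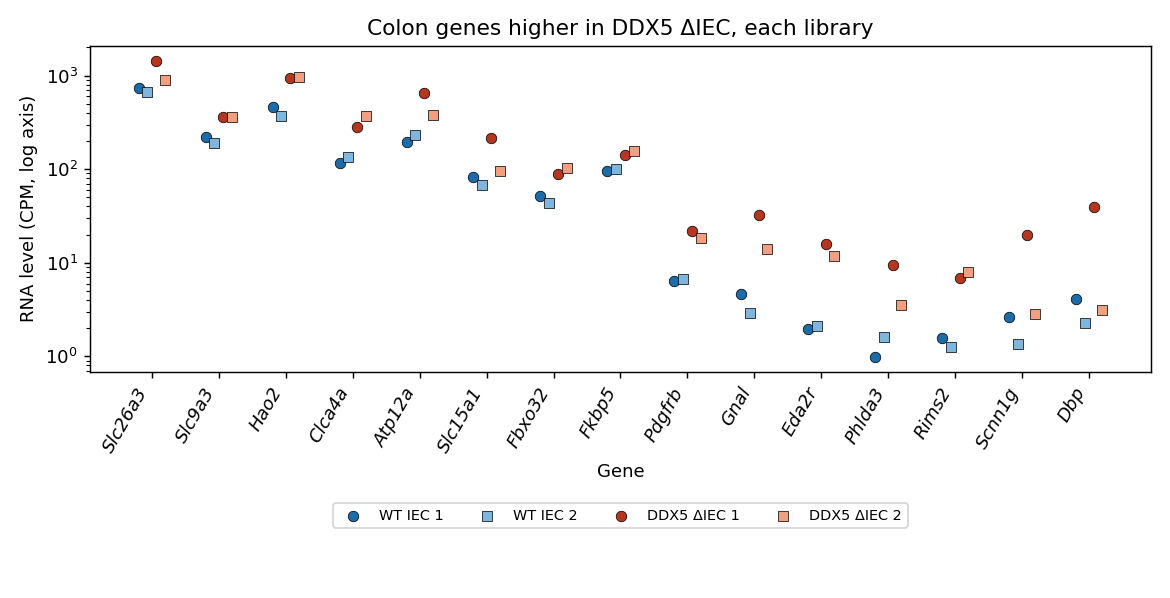
CPM (log axis) of genes called higher, in each of the 4 colon libraries, circles for replicate 1 and squares for replicate 2. For Hao2, Slc9a3, Fkbp5 and Rims2 the DDX5 ΔIEC libraries lie together above WT IEC, while Dbp and Scnn1g stand out in DDX5 ΔIEC replicate 1.

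Salt absorption in the colon runs through sodium channels and ion pumps. Of 18 tested genes of the epithelial sodium channel and aldosterone response, 5 were higher and 1 lower (median 0.28). The shares over all genes were 3.04% higher and 3.67% lower. Atp12a, the nongastric proton/potassium pump, stood at 194 and 232 CPM in WT IEC and 658 and 377 CPM in DDX5 ΔIEC (1.23, SE 0.261). Scnn1g, the gamma subunit of the sodium channel, was at 2.61 and 1.37 CPM in WT IEC and 19.7 and 2.86 CPM in DDX5 ΔIEC (2.12, SE 0.477), and Fxyd4, a regulator of the sodium pump, at 16 and 21.4 CPM in WT IEC and 67.5 and 25.4 CPM in DDX5 ΔIEC (1.16, SE 0.439). For Scnn1g and Fxyd4, DDX5 ΔIEC replicate 2 lay close to the wild-type libraries. Fxyd4 lost the call without WT IEC replicate 1, at a log2 fold change of 1.11. Scnn1g lost the call without WT IEC replicate 2, at a log2 fold change of 2.09. Scnn1g and Fxyd4 lost the call without DDX5 ΔIEC replicate 1, at log2 fold changes of 0.54 and 0.43. Scnn1g and Fxyd4 moved to 3.32 and 1.84 without DDX5 ΔIEC replicate 2. The count was 1 lower and 3 higher of 18 without WT IEC replicate 1, 0 lower and 4 higher of 17 without WT IEC replicate 2, 1 lower and 2 higher of 18 without DDX5 ΔIEC replicate 1, and 1 lower and 8 higher of 18 without DDX5 ΔIEC replicate 2. Glucocorticoid response genes were split, with 2 of 17 higher and 2 lower. The count was 1 lower and 1 higher of 17 without WT IEC replicate 1, 1 lower and 3 higher of 17 without WT IEC replicate 2, 6 lower and 4 higher of 17 without DDX5 ΔIEC replicate 1, and 2 lower and 4 higher of 17 without DDX5 ΔIEC replicate 2. It came to 0 lower with all 8 libraries in 1 fit. Fkbp5, a co-chaperone of steroid receptors, stood at 95.1 and 99.9 CPM in WT IEC and 144 and 158 CPM in DDX5 ΔIEC (0.63, SE 0.0799), and the metallothionein gene Mt1 at 273 and 258 CPM in WT IEC and 200.2 and 130.2 CPM in DDX5 ΔIEC (-0.72, SE 0.146). Neither gene's libraries overlapped between the genotypes. Mt1 lost the call without DDX5 ΔIEC replicate 2, at a log2 fold change of -0.41.

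Nutrient uptake genes held members called higher. Over all 246 solute carriers tested, 14 were higher and 9 lower, 5.69% and 3.66%, against 3.04% and 3.67% of all genes. The count was 7 lower and 7 higher of 252 without WT IEC replicate 2, 14 lower and 12 higher of 253 without DDX5 ΔIEC replicate 1, and 36 lower and 27 higher of 252 without DDX5 ΔIEC replicate 2. It came to 9 higher with DESeq2 and no block and 15 lower of 333 with no filter. Slc15a1, the peptide transporter PEPT1, stood at 81.8 and 68.2 CPM in WT IEC and 215 and 95.9 CPM in DDX5 ΔIEC (0.94, SE 0.222). Slc6a19, a transporter of neutral amino acids, was at 0.986 and 1.03 CPM in WT IEC and 3.04 and 3.86 CPM in DDX5 ΔIEC (1.77, SE 0.287), and Slc34a2, a sodium/phosphate cotransporter, at 19.9 and 30.5 CPM in WT IEC and 43.4 and 52.7 CPM in DDX5 ΔIEC (0.95, SE 0.123). Slc15a1 was high mainly in DDX5 ΔIEC replicate 1, while the others were raised alike in both. Slc15a1 lost the call without WT IEC replicate 2, at a log2 fold change of 0.92. Slc15a1 lost the call without DDX5 ΔIEC replicate 1, at a log2 fold change of 0.36. Slc15a1 moved to 1.51 without DDX5 ΔIEC replicate 2. Of 15 brush border enzymes tested 3 were higher and 1 was lower. Naaladl1, a peptidase, was at 19.2 and 18.5 CPM in WT IEC and 37.8 and 56.2 CPM in DDX5 ΔIEC (1.3, SE 0.174). That count was 0 lower and 1 higher of 16 without WT IEC replicate 1, 1 lower and 1 higher of 16 without WT IEC replicate 2, 1 lower and 7 higher of 16 without DDX5 ΔIEC replicate 1, 3 lower and 5 higher of 16 without DDX5 ΔIEC replicate 2, and 0 lower and 1 higher of 15 with DESeq2 and the replicate block. In the bile acid list 4 of 10 were higher and 0 lower, among them Fabp6, the bile acid binding protein, at 1.39 and 1.86 CPM in WT IEC and 3.04 and 3.91 CPM in DDX5 ΔIEC (1.09, SE 0.258). Fabp6 lost the call without WT IEC replicate 1, at a log2 fold change of 0.90. The bile acid count was 0 lower and 1 higher of 10 without WT IEC replicate 1, 0 lower and 1 higher of 10 without WT IEC replicate 2, 0 lower and 2 higher of 10 without DDX5 ΔIEC replicate 1, 4 lower and 4 higher of 10 without DDX5 ΔIEC replicate 2, and 0 lower and 1 higher of 10 with DESeq2 and the replicate block. Cytochromes P450 of families 1 to 4 had 8 higher and 0 lower of 31 tested, with a median of 0.16. Cyp2d12 stood at 19 and 16.5 CPM in WT IEC and 44.3 and 30.3 CPM in DDX5 ΔIEC (1.05, SE 0.127), above wild type in both animals. Protein-coding P450 genes alone gave 7 of 28 higher. The P450 count was 0 lower and 5 higher of 36 without WT IEC replicate 2, 8 lower and 7 higher of 34 without DDX5 ΔIEC replicate 2, and 0 lower and 4 higher of 31 with DESeq2 and the replicate block. It came to 1 lower with no block, 1 lower and 5 higher with the pairs crossed, 1 lower of 67 with no filter and 1 lower of 32 with all 8 libraries in 1 fit. Genes of drug-conjugating enzyme families had 4 higher and 0 lower of 42, or 3 of 40 higher without pseudogenes, including Gstm3 at 18.8 and 16.7 CPM in WT IEC and 32.2 and 30.5 CPM in DDX5 ΔIEC (0.83, SE 0.104), which shares 28.8% of its words with other genes. The count was 0 lower and 2 higher of 42 without WT IEC replicate 1, 1 lower and 1 higher of 42 without WT IEC replicate 2, 1 lower and 3 higher of 42 without DDX5 ΔIEC replicate 1, 9 lower and 6 higher of 42 without DDX5 ΔIEC replicate 2, and 1 lower and 1 higher of 42 with DESeq2 and the replicate block. It came to 2 higher with DESeq2 and no block and 1 lower of 52 with no filter.

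Targets of the p53 pathway, which responds to DNA damage, included 6 higher and 0 lower genes of 27 tested. Of all genes, 3.04% were higher and 3.67% lower. The list median was 0.067. Eda2r, a receptor of the tumor necrosis factor family, stood at 1.97 and 2.10 CPM in WT IEC and 15.8 and 11.7 CPM in DDX5 ΔIEC (2.73, SE 0.231), with an adjusted p of 0.0866 in edgeR's quasi-likelihood test (Benjamini-Hochberg). Phlda3, a brake on AKT signalling, was at 0.986 and 1.61 CPM in WT IEC and 9.41 and 3.51 CPM in DDX5 ΔIEC (2.14, SE 0.538), and Trp53inp1 at 92.7 and 82.4 CPM in WT IEC and 129 and 131 CPM in DDX5 ΔIEC (0.57, SE 0.0920). All were above wild type in both DDX5 ΔIEC libraries, which the naming rule required of Eda2r and Phlda3. Trp53inp1 lost the call without WT IEC replicate 2, at a log2 fold change of 0.48. Phlda3 moved to 1.41 without DDX5 ΔIEC replicate 1. The count was 0 lower and 3 higher of 27 without WT IEC replicate 2, 1 lower and 4 higher of 27 without DDX5 ΔIEC replicate 1, and 1 lower and 10 higher of 27 without DDX5 ΔIEC replicate 2.

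Circadian clock genes differed mainly in 1 library. The count was 6 higher and 1 lower of 19 tested, against 3.04% and 3.67% of all genes, with a median of 0.18. That median was 0.31 without WT IEC replicate 1, 0.074 without DDX5 ΔIEC replicate 1 and 0.51 without DDX5 ΔIEC replicate 2. Dbp, a clock output factor, stood at 4.06 and 2.25 CPM in WT IEC and 39.3 and 3.11 CPM in DDX5 ΔIEC, and its relative Tef at 19.8 and 12.1 CPM in WT IEC and 84.3 and 13.9 CPM in DDX5 ΔIEC. Nr1d1, the repressor REV-ERB alpha, was at 32 and 17.3 CPM in WT IEC and 70.3 and 23.3 CPM in DDX5 ΔIEC, and Ciart, a repressor in the same loop, at 0.522 and 0.147 CPM in WT IEC and 5.34 and 0.702 CPM in DDX5 ΔIEC. In each case DDX5 ΔIEC replicate 1 was far above the other 3 libraries, and replicate 2 was at or near the wild-type range. Dbp, Tef and Nr1d1 lost the call without WT IEC replicate 1, at log2 fold changes of 3.22, 2.01 and 1.43. Dbp, Tef, Nr1d1 and Ciart lost the call without WT IEC replicate 2, at log2 fold changes of 2.37, 1.3, 0.54 and 2.49. Dbp, Tef, Nr1d1 and Ciart lost the call without DDX5 ΔIEC replicate 1, at log2 fold changes of -0.0051, -0.19, -0.072 and 1.11. Dbp, Tef and Nr1d1 moved to 3.65, 2.41 and 1.52 without DDX5 ΔIEC replicate 2. The count was 0 lower and 2 higher of 19 without WT IEC replicate 1, 0 lower and 0 higher of 19 without WT IEC replicate 2, 3 lower and 0 higher of 19 without DDX5 ΔIEC replicate 1, 4 lower and 10 higher of 19 without DDX5 ΔIEC replicate 2, and 0 lower and 4 higher of 19 with DESeq2 and the replicate block. It came to 2 higher with no block or with the pairs crossed, 1 higher with DESeq2 and no block and 3 higher of 20 with all 8 libraries in 1 fit. Nfil3, which acts against Dbp and peaks at another time of day, was lowest in DDX5 ΔIEC replicate 1, at 17.2 and 12.9 CPM in WT IEC and 3.04 and 9.62 CPM in DDX5 ΔIEC. Nfil3 lost the call without WT IEC replicate 1, at a log2 fold change of -1.02. Nfil3 lost the call without WT IEC replicate 2, at a log2 fold change of -1.43. Nfil3 moved to -0.64 without DDX5 ΔIEC replicate 1. Nfil3 moved to -2.31 without DDX5 ΔIEC replicate 2.

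Enteroendocrine genes had 8 higher and 2 lower of 23 tested, against 3.04% and 3.67% of all genes. Their median was 0.18, and they summed to 302 and 314 CPM in WT IEC and 327 and 374 CPM in DDX5 ΔIEC. Scg2, a granin of secretory vesicles, stood at 1.39 and 0.832 CPM in WT IEC and 3.83 and 2.21 CPM in DDX5 ΔIEC (1.43, SE 0.286), and the hormone gene Cck at 0.406 and 0.391 CPM in WT IEC and 1.09 and 1.20 CPM in DDX5 ΔIEC (1.51, SE 0.414). Both were above wild type in each DDX5 ΔIEC library, at levels of a few CPM or less. Cck lost the call without WT IEC replicate 1, at a log2 fold change of 1.54. Scg2 and Cck lost the call without WT IEC replicate 2, at log2 fold changes of 1.1 and 1.48. The count was 0 lower and 2 higher of 23 without WT IEC replicate 1, 1 lower and 3 higher of 22 without WT IEC replicate 2, 1 lower and 4 higher of 23 without DDX5 ΔIEC replicate 1, 5 lower and 8 higher of 23 without DDX5 ΔIEC replicate 2, and 2 lower and 3 higher of 23 with DESeq2 and the replicate block. It came to 1 lower with no block and 4 higher with DESeq2 and no block. Outside these classes, signalling and scaffold genes of low abundance were among the higher genes. Gnal, a G protein alpha subunit, stood at 4.58 and 2.94 CPM in WT IEC and 32.6 and 14.1 CPM in DDX5 ΔIEC (2.56, SE 0.203), and Rims2, a scaffold of secretory vesicle release, at 1.57 and 1.27 CPM in WT IEC and 6.92 and 7.92 CPM in DDX5 ΔIEC (2.39, SE 0.256). In both, no library of one genotype reached the other, which the naming rule required. Pdgfrb, the growth factor receptor of fibroblasts and pericytes, was higher at 6.44 and 6.75 CPM in WT IEC and 21.9 and 18.6 CPM in DDX5 ΔIEC (1.61, SE 0.162), whereas 3 of the 13 tested fibroblast markers were lower and Pdgfrb was the only higher one. The fibroblast count was 8 lower and 1 higher of 13 without DDX5 ΔIEC replicate 1, 3 lower and 3 higher of 14 without DDX5 ΔIEC replicate 2, and 1 lower and 1 higher of 13 with DESeq2 and the replicate block. It came to 5 lower with the pairs crossed.

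**Figure D5:**
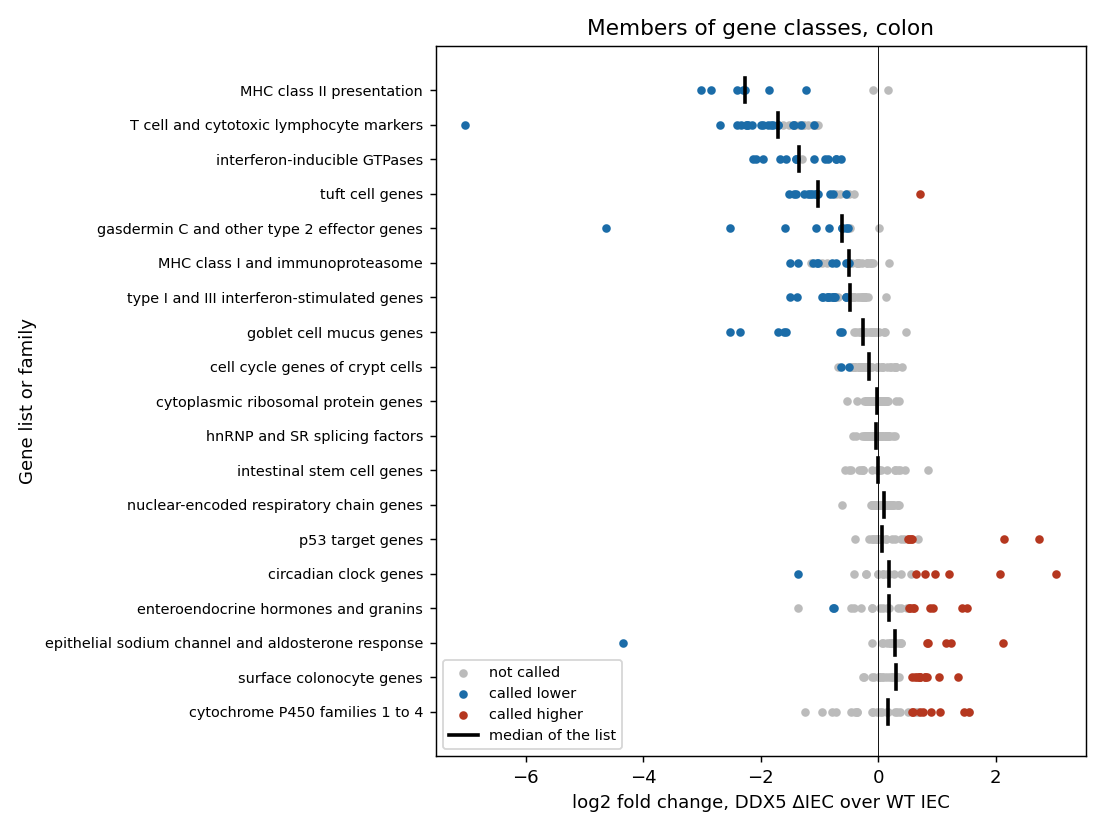
Log2 fold change (DDX5 ΔIEC over WT IEC) of every tested member of the gene lists and families on the vertical axis, 1 point per gene, blue for called lower, red for called higher, grey for not called, with a bar at the median. MHC class II, T cell and interferon-inducible GTPase genes lie to the left, ribosomal protein and splicing factor genes around 0 and surface colonocyte genes to the right, and the far left points of Cd6 (0 counts in both DDX5 ΔIEC libraries) and Kcnj16 (0 and 2 counts) measure little.

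Housekeeping machinery was nearly flat. With 0 called in either direction by edgeR's quasi-likelihood test were 85 cytoplasmic ribosomal protein genes (median -0.027), 52 hnRNP and SR splicing factors (-0.033), 91 nuclear-encoded respiratory chain genes (0.092) and 35 ribosome biogenesis factors (0.030). DESeq2 with the replicate block called 0 in each of these as well, and without 1 library at a time at most 1 member was called. Of these, 5 ribosomal and 2 respiratory chain entries do not code for protein. Rplp0, a ribosomal stalk protein that shares 33.1% of its words, stood at 1308 and 1210.3 CPM in WT IEC and 1342 and 1194 CPM in DDX5 ΔIEC. Atp5a1, a subunit of the mitochondrial ATP synthase, was at 1608 and 1582 CPM in WT IEC and 1623 and 1669 CPM in DDX5 ΔIEC. The genotypes overlapped for Rplp0, while both DDX5 ΔIEC libraries of Atp5a1 lay slightly above both WT IEC libraries, at a log2 fold change of 0.046 (SE 0.0961) that was not called. MicroRNA processing genes had 1 lower of 17, which was Ddx5 itself, and Ran, a GTPase of nuclear transport, was at 127 and 137 CPM in WT IEC and 129 and 135 CPM in DDX5 ΔIEC. Intestinal stem cell genes had 0 called of 20 (-0.0051). The stem cell count was 1 lower and 2 higher of 20 without DDX5 ΔIEC replicate 1, 4 lower and 1 higher of 20 without DDX5 ΔIEC replicate 2, and 1 lower and 0 higher of 20 with DESeq2 and the replicate block. It came to 1 lower with the pairs crossed. Cell cycle genes had 2 lower and 0 higher of 40 (-0.16), against 3.67% and 3.04% of all genes. Their median was 0.037 without DDX5 ΔIEC replicate 1 and -0.40 without DDX5 ΔIEC replicate 2, so its sign rested on 1 library. The cell cycle count was 1 lower and 0 higher of 40 without WT IEC replicate 1, 2 lower and 2 higher of 40 without WT IEC replicate 2, 1 lower and 0 higher of 40 without DDX5 ΔIEC replicate 1, and 15 lower and 0 higher of 40 without DDX5 ΔIEC replicate 2. It came to 1 lower with no block or with DESeq2 and no block. Wnt target genes had 2 lower of 16, Myc and Ccnd1, with a median of -0.29 and 12 of the 16 negative, so they were not flat. The Wnt count was 1 lower and 1 higher of 16 without WT IEC replicate 2, 3 lower and 1 higher of 18 without DDX5 ΔIEC replicate 1, and 5 lower and 1 higher of 16 without DDX5 ΔIEC replicate 2. It came to 5 lower of 21 with no filter. The microRNA processing count was 2 lower and 0 higher of 17 without DDX5 ΔIEC replicate 2.

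The remaining classes are described by their counts, beside 3.67% lower and 3.04% higher over all genes tested. Where leaving out 1 library moved a count by more than 1.5 times, the counts without WT IEC replicate 1, WT IEC replicate 2, DDX5 ΔIEC replicate 1 and DDX5 ΔIEC replicate 2 follow in parentheses in that order, over the genes that passed the filter there. Counts that moved as far with DESeq2 and the block, or that another setting took to or from 0, come after those. Other settings moved some further counts by more than 1.5 times. Among immune genes, the H2 family overlaps with the MHC lists above. Of 23 H2 genes, 10 were lower and 0 higher (0, 0, 1 and 0 higher). Of 5 schlafens, 2 were lower and 0 higher (1, 2, 2 and 3 lower). Of 25 Toll-like receptors, NOD-like receptors and adaptors, 2 were lower and 1 higher (1, 1, 1 and 6 lower and 1, 2, 1 and 1 higher), against 1 lower with DESeq2 and the block. Schlafens are interferon-inducible, and the sensors detect microbial products. Protein-coding H2 genes alone gave 9 of 18 lower. Of 11 complement components and regulators, 2 were lower and 0 higher (1, 1, 3 and 1 lower and 0, 0, 0 and 1 higher), against 1 higher of 13 with all 8 libraries. Of 7 genes with T cell receptor symbols, 1 was lower and 0 higher (1, 3, 3 and 8 lower), against 2 lower with no block or DESeq2 and no block, 5 lower with the pairs crossed and 2 lower of 9 with all 8 libraries. Of 3 genes with immunoglobulin symbols, 0 were lower and 2 higher (0, 1, 2 and 0 higher), against 1 higher with DESeq2 and the block. Of the T cell receptor symbols 6 are constant regions, and the higher immunoglobulin genes are Igha and Igkc, given above. Of 3 endothelial markers, 1 was lower and 1 higher (1, 0, 0 and 1 higher), against 0 higher with DESeq2 and the block, no block, the pairs crossed or DESeq2 and no block and 0 higher of 5 with all 8 libraries. Of 19 genes with collagen symbols, 1 was lower and 1 higher (0, 0, 5 and 3 lower and 1, 0, 0 and 4 higher), against 0 lower with DESeq2, with or without the block. Of 8 serpins, 1 was lower and 1 higher (0, 0, 1 and 1 lower and 0, 0, 1 and 0 higher), against 0 lower and 0 higher with DESeq2, with or without the block.

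Secretory and barrier families follow in the same form. Of 49 genes with glycosyltransferase symbols, 0 were lower and 6 higher (0, 0, 1 and 5 lower and 3, 2, 5 and 11 higher), against 1 lower with DESeq2 and the block or the pairs crossed. Of 7 mucins, 0 were lower and 2 higher (0, 2, 3 and 1 higher), against 1 higher with DESeq2 and the block. Of 13 Reg family members and galectins, 2 were lower and 0 higher (2, 1, 1 and 7 lower and 0, 0, 1 and 0 higher). Protein-coding glycosyltransferase genes alone gave 5 of 48 higher, the other being the antisense RNA Galnt6os. Fut9, a fucosyltransferase, stood at 26.9 and 25.7 CPM in WT IEC and 65.6 and 35.6 CPM in DDX5 ΔIEC (0.88, SE 0.210). Fut9 lost the call without WT IEC replicate 2, at a log2 fold change of 0.90. Fut9 lost the call without DDX5 ΔIEC replicate 1, at a log2 fold change of 0.43. Of 16 Notch pathway genes and secretory regulators, 1 was lower and 0 higher (3, 1, 1 and 3 lower and 0, 0, 1 and 1 higher). Of 10 EGF receptor ligands and receptors, 1 was lower and 0 higher (0, 1, 3 and 0 lower and 0, 0, 1 and 0 higher), against 0 lower with no block, the pairs crossed or DESeq2 and no block and 0 lower of 11 with all 8 libraries. Of 14 genes of guanylin signalling and anion secretion, 1 was lower and 1 higher (1, 1, 0 and 2 lower and 1, 0, 0 and 4 higher). These are signals that set cell fate, growth and fluid secretion. Of 15 keratins, 2 were lower and 0 higher, against 1 higher of 38 with no filter. Of 22 claudins and tight junction genes, 1 was lower and 1 higher (1, 0, 0 and 1 higher). Of 17 phospholipases A2, 2 were lower and 0 higher (2, 1, 2 and 4 lower and 0, 0, 0 and 4 higher), against 1 lower with DESeq2 and the block and 1 higher of 19 with all 8 libraries. Keratins and claudins hold the epithelial sheet together.

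Transporters come next. Of 33 ABC transporters, 2 were lower and 3 higher (1, 2, 4 and 5 lower and 1, 0, 2 and 5 higher), against 1 higher with DESeq2 and the block. Of 35 amino acid and peptide transporters, 3 were lower and 3 higher (4, 3, 3 and 8 lower and 3, 1, 2 and 3 higher). Of 24 sugar and monocarboxylate transporters, 1 was lower and 2 higher (1, 1, 2 and 5 lower and 2, 2, 3 and 6 higher), against 1 higher with DESeq2 and the block. Over all genes tested, 3.67% were lower and 3.04% higher. Of 48 ion, phosphate, bicarbonate and zinc transporters, 3 were lower and 5 higher (3, 2, 4 and 7 lower and 4, 3, 3 and 9 higher). Of 25 genes with potassium channel symbols, 4 were lower and 2 higher (2, 1, 1 and 6 lower and 2, 3, 2 and 6 higher), against 2 lower with DESeq2 and the block. Of 9 genes of calcium absorption and the vitamin D response, 2 were lower and 0 higher (2, 1, 3 and 3 lower and 0, 0, 0 and 1 higher). Protein-coding members alone gave 4 of 24 lower and 1 higher for potassium channels. Of 20 genes of vitamin A uptake and retinoid metabolism, 2 were lower and 4 higher (1, 1, 1 and 4 lower and 2, 1, 3 and 6 higher), against 0 lower and 2 higher with DESeq2 and the block. Of 15 genes of lipid absorption, 0 were lower and 1 higher (0, 2, 0 and 2 lower and 1, 0, 3 and 2 higher), against 1 lower and 2 higher of 21 with all 8 libraries. Of 34 genes of fatty acid oxidation and ketogenesis, 0 were lower and 2 higher (0, 0, 0 and 7 lower and 1, 0, 3 and 2 higher), against 1 lower and 1 higher with DESeq2 and the block. Fat and vitamin A are absorbed chiefly in the small intestine. Of 28 genes of cholesterol synthesis and sterol control, 1 was lower and 0 higher (2, 0, 3 and 1 lower). Of 22 genes of the glutathione cycle and NRF2 response, 1 was lower and 1 higher (2, 1, 1 and 1 lower and 1, 1, 2 and 1 higher). Of 27 genes of glycolysis and the hypoxia response, 1 was lower and 2 higher (0, 1, 3 and 2 lower and 0, 1, 0 and 2 higher), against 0 lower with DESeq2 and the block.

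Nuclear and stress families come next. The histone genes had a median of -0.30, and 55 of the 61 tested had a negative log2 fold change. Their median log2 ratio was -0.39 in the replicate 1 pair and -0.22 in the replicate 2 pair. For DDX5 ΔIEC replicate 2 over WT IEC replicate 1 it was 0.0040. Of 61 replication-dependent histone genes, 5 were lower and 1 higher (12, 0, 0 and 31 lower and 0, 1, 1 and 1 higher), against 2 lower and 0 higher with DESeq2 and the block. Of 38 nuclear receptors, 4 were lower and 2 higher (0, 1, 3 and 6 lower and 2, 0, 1 and 4 higher), against 2 lower and 0 higher with no block, the pairs crossed or DESeq2 and no block. Of 333 zinc finger genes named Zfp, 5 were lower and 5 higher (2, 1, 5 and 12 lower and 3, 2, 11 and 13 higher), against 0 lower and 0 higher with DESeq2 and the block and 0 lower and 2 higher with DESeq2 and no block. Zinc finger genes were called at 1.5% lower and 1.5% higher, against 3.67% and 3.04% of all genes. Of 18 cytosolic heat shock genes, 1 was lower and 2 higher (0, 0, 0 and 2 lower and 0, 4, 5 and 1 higher), against 0 lower and 1 higher with no block, the pairs crossed or DESeq2 and no block and 0 lower and 1 higher of 19 with all 8 libraries. Of 33 kinesins, 0 were lower and 1 higher (0, 0, 0 and 7 lower and 1, 2, 2 and 1 higher). Of 5 olfactory receptor genes, 1 was lower and 0 higher (1, 0, 1 and 2 lower and 0, 0, 0 and 2 higher), against 0 lower with DESeq2, with or without the block. Olfactory receptor genes seldom passed the filter.

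In a last group of classes edgeR's quasi-likelihood test called 0 genes in either direction, and DESeq2 with the replicate block called 0 in all of them but the Hox genes, where 4 of 24 were lower. The 6 myeloid markers had 0 calls (0, 2, 2 and 3 lower), against 2 lower with no block or the pairs crossed, 1 lower with DESeq2 and no block, 3 lower of 23 with no filter, 1 lower of 7 with a mean of 10 counts and 2 lower of 10 with all 8 libraries. The 1 smooth muscle marker had 0 calls (0, 0, 1 and 0 higher). The 3 enteric neuron and glia markers had 0 calls (0, 0, 1 and 0 higher). These mark cells other than epithelium. The 5 erythroid markers had 0 calls (0, 0, 0 and 3 lower and 0, 0, 2 and 0 higher). The 24 Hox genes had 0 calls (0, 0, 1 and 10 lower and 0, 0, 2 and 8 higher), against 1 higher with no block or all 8 libraries, 2 higher with the pairs crossed and 1 lower of 38 with no filter. The 21 genes of the BMP and TGF beta pathways had 0 calls (0, 0, 3 and 1 lower and 1, 0, 1 and 3 higher), against 1 lower with no block. Hox genes and BMP signals pattern the gut along its length and its crypt axis. The 21 mitochondrially encoded genes had 0 calls (1, 0, 2 and 1 lower and 0, 1, 3 and 0 higher). The 34 cytosolic and mitochondrial aminoacyl-tRNA synthetases had 0 calls (0, 1, 0 and 0 higher). The 27 unfolded protein response genes had 0 calls (0, 0, 1 and 0 lower and 0, 1, 0 and 0 higher). These cover protein synthesis and folding. The 14 genes of iron uptake and storage had 0 calls (1, 0, 0 and 1 lower). The 33 small nucleolar and Cajal body RNAs had 0 calls (0, 0, 4 and 0 lower and 0, 1, 0 and 5 higher), against 2 higher with the pairs crossed and 1 higher with DESeq2 and no block. The 12 housekeeping reference genes had 0 calls, also with each library left out in turn. The reference genes are a control for scaling. The 2 defensins had 0 calls (0, 1, 0 and 1 lower and 0, 0, 1 and 1 higher), against 1 higher with the pairs crossed. The 13 transmembrane serine proteases and kallikreins had 0 calls (0, 1, 1 and 2 higher), against 1 higher of 48 with no filter and 1 lower of 15 with all 8 libraries. The 4 Y-linked genes had 0 calls (0, 1, 0 and 0 lower).

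The same genotypes were also sequenced from the ileum, and the difference between tissues was tested for the named colon genes with an interaction term over all 8 libraries. Of 242 named genes in that test, 2 passed an adjusted p of 0.05 over 16178 genes in edgeR's quasi-likelihood test (Benjamini-Hochberg). Only 1 did with genotype and replicate number as a block across tissues, which assumes that libraries of the same number come from 1 mouse, and the labels do not say so. The genes that passed without that block were Mptx2 and Slc8a1, while Ang4 and Reg4 did not pass. In the fit without the block Ang4 had log2 fold changes of -2.26 (colon) and 0.20 (ileum), and Reg4 of -1.7 and 0.50. In the ileum Ang4 stood at 2359 and 2224 CPM in WT IEC and 2271 and 2987 CPM in DDX5 ΔIEC. For Ang4 the adjusted p of the difference was 0.639 in edgeR's quasi-likelihood test (Benjamini-Hochberg), and 0.0918 with that block. For Reg4 the same test gave 0.726, and 0.406 with that block.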

How the data were processed

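Per the study's methods, the authors aligned paired reads of ribosome-depleted stranded libraries to mm10 with STAR 2.6.1a and counted uniquely mapped reads over exons with featureCounts, and deposited whole-number counts per gene in a table for each tissue. Whether counting used strand is not given in the sources used here. The colon table also holds the authors' DESeq2 comparison columns (mean, fold change, its error, statistic and p-values), which were not used. Here genes were filtered with filterByExpr (minimum count 10), normalized by TMM and tested with edgeR 4.0.16 (limma 3.58.1, R 4.3.3) by the quasi-likelihood test, with terms for replicate number and genotype. Calls needed a log2 fold change of 0.5 in size and an unadjusted p under 0.05, with Benjamini-Hochberg adjusted p-values over all genes beside them. The study's model has a term for harvest, and whether the replicate number used here marks it is not given in the sources used here. DESeq2 1.42.0, no block, crossed pairs, RLE, other filters, all 8 libraries and leaving out each library were alternatives. The fit of all 8 libraries had no replicate block, so it changed the libraries and the block together. Log ratios by pair used a prior count of 1. The steps were tested on simulated data. With 2 libraries against 2, an exact two-sided permutation test of a single gene cannot go below 0.333.

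Named genes were Ddx5, then from protein-coding called genes with both DDX5 ΔIEC libraries beyond both WT IEC libraries and a mean of at least 1 CPM, the 12 lower and 12 higher with the largest fold change and the 6 and 6 largest with a mean of at least 50 CPM. Families were matched by the start of gene symbols and hold some pseudogenes, antisense RNAs and genes of other function named alike. From each list or family up to 4 called members were added by fold change, or its 2 most abundant where fewer than 2 were called. Of the genes this rule takes, 1 is not reported here. Members and lists were chosen with earlier results of these data known. Words shared between genes are 50-base stretches of a gene's transcripts also found in transcripts of other genes. Gene positions are from GENCODE vM21 on GRCm38, later than the authors' annotation, and promoters are from RefSeq on GRCm38.p6.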

Additional observations from a re-analysis of the deposited data

Results flagged for a closer look

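For 2 named genes the effect of the genotype differed between colon and ileum by an interaction term in edgeR's quasi-likelihood test (Benjamini-Hochberg over 16178 genes). Mptx2 had a log2 fold change of -1.97 in colon and 0.42 in ileum, a difference of -2.39 (adjusted p 0.0497, and 0.0918 with a block that pairs ileum and colon libraries by replicate number). The labels do not say that a number marks a mouse. Its ileum levels were 403 and 359 CPM for WT IEC, 495 and 524 for DDX5 ΔIEC. Slc8a1, a sodium/calcium exchanger, had a log2 fold change of -0.60 in colon and 4.29 in ileum, so most of its difference lay in the ileum. That difference was -4.89 (adjusted p 0.0428, and 0.0119 with that block). Its ileum levels were 1.48 and 1.53 CPM for WT IEC, 27.1 and 32 for DDX5 ΔIEC.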

How the results depend on the processing

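With the replicate block, 564 genes were lower, 467 higher and 0 had an adjusted p under 0.05 in edgeR's quasi-likelihood test (Benjamini-Hochberg), with 1836 at an unadjusted p under 0.05. With no replicate block, 554 were lower, 486 higher and 5 passed, and with the pairs crossed, 572, 436 and 17. Samples sharing a number did not deviate together (correlation of deviations across genes 0.00135). DESeq2 with the block gave 310 lower, 198 higher and 117 passing, and without it 394, 309 and 183. All 8 libraries in 1 fit, with no replicate block, gave 10 passing. A log2 fold change of at least 1 left 283 lower and 210 higher. Normalization by RLE and both filters kept each of these counts over all genes within 1.5 times. Of 89 lists and families, either count moved by more than 1.5 times, or from or to 0, in 0 with RLE, 2 with a mean of at least 10 counts, 11 with no filter, 21 with no block, 22 with the pairs crossed, 31 with DESeq2 and the block, 26 with DESeq2 and no block, 30 with all 8 libraries, and 41, 61, 62 and 66 without WT IEC replicates 1 and 2 and DDX5 ΔIEC replicates 1 and 2. Leaving out 1 library gave 316 to 1435 lower, 292 to 953 higher and 0 to 2506 passing. Those fits have no block, and a lone library is assumed to vary like the others. For the interaction with tissue, 1 named gene passed with the block by replicate number across tissues, against 2 without. Ran, Rplp1 and Scarna2, none of which was called, changed sign: Ran with no filter (-0.0041) and with a mean of at least 10 counts (-0.0012), Rplp1 with no block (0.00042) and all 8 libraries (0.011), and Scarna2 with no block (0.0076), DESeq2 with no block (0.0052) and all 8 libraries (0.018). Named genes that changed sign without some library had these ranges of log2 fold change over the leave-out fits: Ret -0.54 to 0.92, Hbb-bs -1.22 to 0.51, Hba-a1 -0.39 to 0.86, Hes1 -0.15 to 0.31, Ran -0.056 to 0.056, Npm1 -0.20 to 0.016, Fabp2 -0.26 to 0.52, Insig1 -0.35 to 0.18, Dbp -0.0051 to 3.65, Tef -0.19 to 2.41, Hspa1a -2.88 to 1.37, Hsph1 -0.11 to 1.73, Erbb3 -0.049 to 0.51, Id3 -0.089 to 0.32, Eif2s3y -0.67 to 0.016, Hnrnpab -0.16 to 0.021, Rplp1 -0.13 to 0.11, Rplp0 -0.078 to 0.088, mt-Rnr2 -0.029 to 0.24, mt-Co1 -0.39 to 0.0034, Nars -0.050 to 0.080, Gars -0.13 to 0.014, Defb37 -3.76 to 0.80, Defb45 -0.16 to 2.16, Hoxb13 -0.11 to 0.66, Hoxa11os -0.19 to 0.93, Nr1d1 -0.072 to 1.52, Kif1c -0.031 to 0.21, Olfr165 -0.13 to 1.02, Scarna2 -0.29 to 0.25, Snora73b -0.68 to 0.98, Klk1 -0.25 to 0.0059 and Prss32 -0.077 to 0.20. Of these Dbp, Tef, Nr1d1, Hspa1a and Hsph1 had been called. The cause was not tested. With 2 libraries a genotype, a difference in a gene of few counts may have gone undetected, and how often was not measured.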

Other observations

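LincRNAs, antisense transcripts and processed transcripts had larger shares called higher than protein-coding genes, a grouping chosen after values were seen, and the difference was not tested. Of lincRNAs 38 of 326 (11.7%) were higher, of antisense transcripts 31 of 281 (11%) and of processed transcripts 18 of 190 (9.47%), against 2.64% of protein-coding genes. Other types also had larger shares, with 10.2% of 59 transcribed processed pseudogenes, 8.62% of 58 unprocessed pseudogenes and 5.13% of 39 transcribed unprocessed pseudogenes higher, whereas 2.26% of 841 TEC genes, 1.73% of 577 processed pseudogenes and 0.735% of 136 sense intronic transcripts were. DESeq2 with the block called 2.45%, 2.85% and 2.63%, against 1.34% of protein-coding genes, and with no filter the shares were 2.46%, 2.49% and 3.84%, against 2.24%. Without WT IEC replicate 1 the counts were 24, 18 and 9, against 1.71% of protein-coding genes, and without WT IEC replicate 2 they were 14, 12 and 8, against 1.75%. Without DDX5 ΔIEC replicate 1 processed transcripts had 28, and protein-coding genes 3.37%, and without DDX5 ΔIEC replicate 2 protein-coding genes had 5.69%. Whether the counting used strand is not given in the sources used here, so an antisense transcript cannot be told apart from its partner.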
